A study of Mus musculus with 9 samples.

Results

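Oxidative phosphorylation subunits encoded in the nucleus were followed in mouse bone marrow-derived dendritic cells of wild-type and STING knockout genotype. Members were the genes whose symbol begins as those of complex I (Nduf followed by a, b, c, s or v and a number), complex II (Sdha to Sdhd), complex III (Uqcr), complex IV (Cox4 to Cox8) or complex V (Atp5). This rule found 81 genes among the 18193 genes with a probe set of a single symbol, and it used no measured value. They comprised 35 genes of complex I, 4 of complex II, 8 of complex III, 17 of complex IV and 17 of complex V. Complexes were assigned by symbol, so Ndufa4, since shown to sit in complex IV, was counted in complex I throughout. Subunits encoded in mitochondrial DNA carry other symbols and were not used here.

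Bone marrow cells of 129/SvEv background had been cultured for 9 to 12 days with GM-CSF, a cytokine that drives the outgrowth of dendritic cells and macrophages. The 3 groups of 3 arrays were wild-type cells in media with no stimulation, wild-type cells stimulated with purified tumor-cell derived DNA, and STING knockout cells stimulated with the same kind of DNA. DNA was delivered with Lipofectamin, a lipid transfection reagent, for 7 h. STING (Sting1) is an adaptor protein through which cells respond to DNA in the cytosol. No STING knockout samples in media and no samples with the reagent alone were analysed here. The effect of the DNA and of the reagent therefore cannot be told apart, nor can the effect of genotype under DNA and a difference between the genotypes at rest.

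The respiratory chain passes electrons from NADH (complex I) or succinate (complex II) through complex III to oxygen at complex IV, and complexes I, III and IV pump protons across the inner mitochondrial membrane. Complex V, the ATP synthase, uses the return of these protons to make ATP. Dendritic cells rely on oxidative phosphorylation at rest and are known to turn towards glycolysis after strong activation by microbial or interferon signals.

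Each array gave 1 linear signal intensity per probe set, and the highest-mean probe set stood for each gene. Of the 81 members, 77 passed the filter on low signal, 33 in complex I, 4 in complex II, 8 in complex III, 15 in complex IV and 17 in complex V. The others were Cox7b2, Cox8b, Ndufa4l2 and Ndufb4, whose signals were at most 69.1 on every array, so that their probe sets gave little measure of the mRNA. Ndufa4l2 is a paralogue of Ndufa4 known to be induced by low oxygen. Differences are given on the log2(signal + 16) scale with their standard error (SE) from limma, 3 arrays a group, and a gene was called at a Benjamini-Hochberg adjusted p below 0.05 over all 12586 genes tested. This scale slightly understates differences of dim genes. The labels do not say whether arrays of a group came from separate mice or cultures, so a p-value here reflects the spread among these arrays, which may be technical.

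Sting1 had signals of 246, 336 and 327 in the knockout and of 2260, 1060 and 1160 in wild-type cells given DNA, a difference of -2.17 ± 0.35 (adjusted p = 0.0016). Of 7 dendritic cell markers, 6 were above the array median on all 9 arrays, with Itgax between 4110 and 6170 and Cd74 between 16300 and 23800, while Flt3 was below it (5.74 to 55.1). All 6 macrophage markers were also above it. Dendritic cell markers summed to 50800 to 57400 in media, 60400 to 78200 on the wild-type DNA arrays and 41400 to 54800 in the knockout. Macrophage markers summed to 43800 to 54900, 54000 to 68500 and 37600 to 52200 in the same order. With DNA in wild-type cells Cd86 (2.62) and Fcgr1 (2.10) were called higher and Marco (-1.51) lower. Under DNA the knockout had lower Cd86, Mertk and Fcgr1 and higher Marco. The other tested markers of both types were not called. The summed signal of 8 T and NK cell markers was 288 to 421 in media, 1200 to 2040 on the wild-type DNA arrays and 287 to 430 in the knockout. Klrk1 (3.54), Gzmb (1.87) and Cd247 (1.15) were called higher with DNA in wild-type cells, and lower in the knockout than in wild-type cells with DNA. Cd8a and Prf1 were not called, and Cd3e, Cd3g and Ncr1 were below the array median on every array. Neutrophil markers summed to 17100 to 71200, 24900 to 91200 and 35000 to 41800 in the same order. The sums were 727 to 1550, 868 to 1900 and 452 to 736 for 6 mast cell and basophil markers, of which Cpa3, Mcpt8 and Fcer1a were called lower in the knockout than in wild-type cells with DNA. For 4 B cell markers they were 286 to 1250, 360 to 2280 and 148 to 307. Their part in the results below was not tested. In such bulk samples, fewer cells of a type and less RNA per cell cannot be told apart. Arrays of the same number deviated together, which made the numbers a block for the fit (given where it moves a count).

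In wild-type cells, tumor DNA went with lower signal of many complex I subunits, while differences in complexes IV and V were mostly smaller. Of the 77 members tested, 21 fell and 1 rose. The genes that fell were 16 of 33 in complex I, 1 of 4 in complex II, 1 of 8 in complex III, 1 of 15 in complex IV and 2 of 17 in complex V. Over all genes tested, 23.6% were called lower and 9.94% higher, so the 27.3% of members called lower were close to that background, whereas complex I stood at 48.5% and complex IV at 6.67%. The median difference was -0.33 over the members (range -1.08 to 0.68) and -0.20 over all genes. By complex it was -0.43 in I, -0.37 in II, -0.29 in III, -0.11 in IV and -0.16 in V. Among arrays of the same number, the median difference of the members was -0.46 for number 1, -0.17 for number 2 and -0.38 for number 3. With the array number as a block, 41 members fell and 1 rose, against 31.6% and 13.2% of all genes.

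The count of members that fell depended on how the arrays were scaled, as did the sign of the smaller differences. Quantile normalization gave 41 lower members and 1 higher, against 17.5% and 10.9% of all genes. Centring every array on the median of the genes tested, an alternative added after the data were seen, gave 2 lower (Atp5g2 and Ndufs7) and 14 higher, against 8.58% and 21.9% of all genes. That centring moved the median of all genes from -0.20 to 0.24 and that of the members from -0.33 to 0.10, so that the members lay 0.14 below all genes in both. Of the 77 members 24 were then below 0, against 68 with the deposited scaling, and of the 21 that had fallen 17 were. Directions in what follows are those of the deposited scaling unless another is named.

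**Figure D1:**
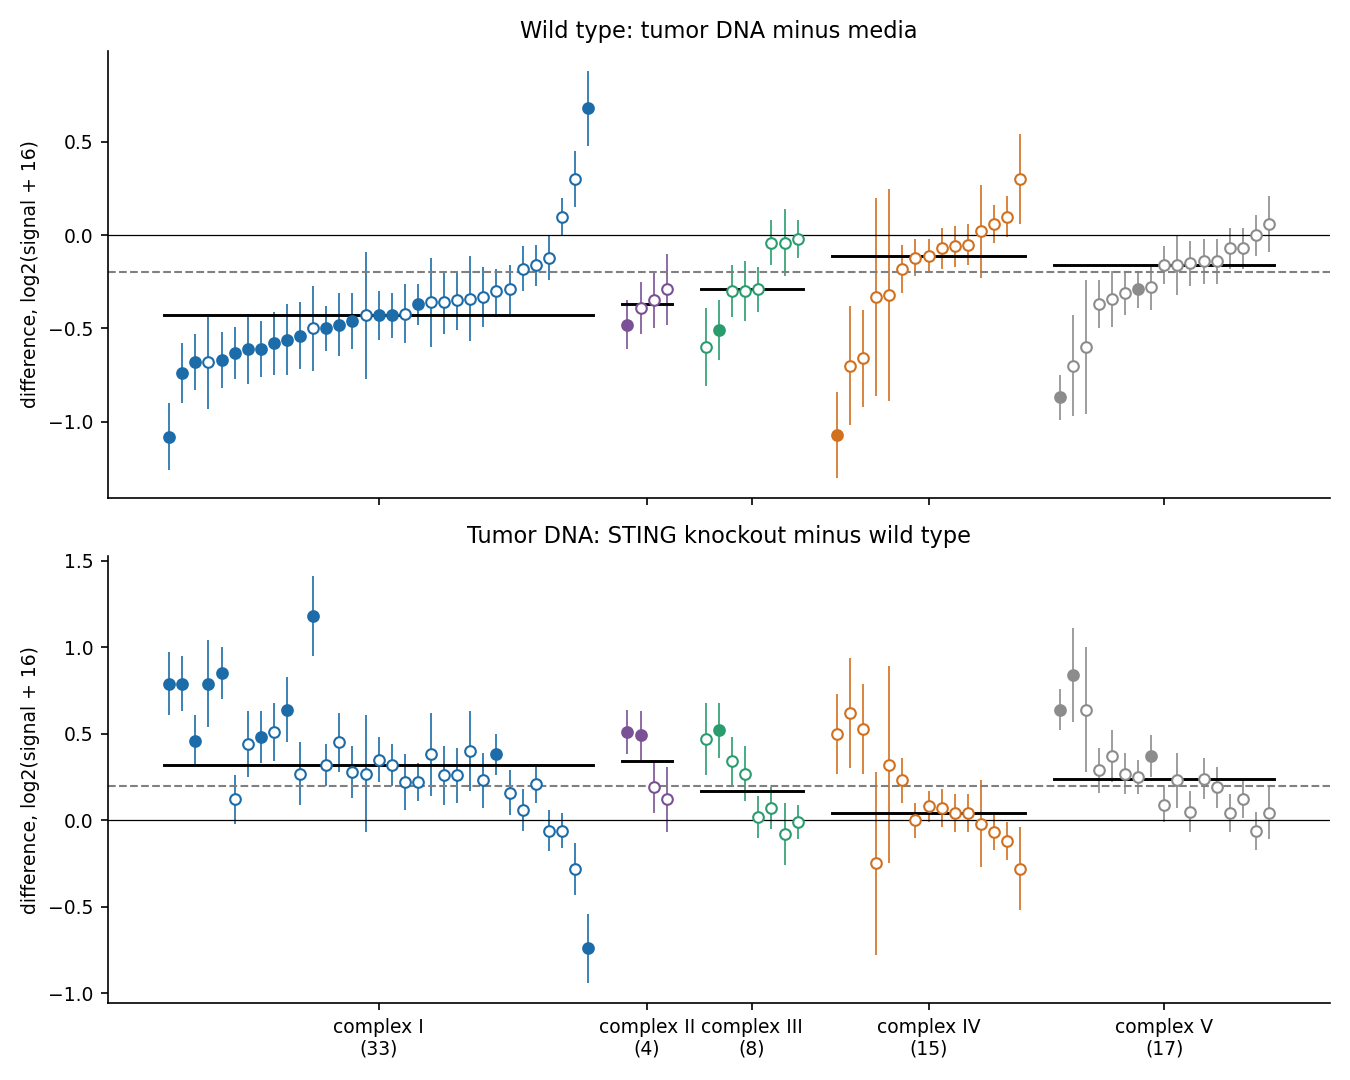
Difference of each of the 77 members on the log2(signal + 16) scale with its SE (3 arrays a group), ordered within each complex by the wild-type difference; numbers of members are in brackets, filled points were called, black bars are the medians of the complexes and the dashed line is the median of all genes tested. Complex I is centred at -0.43 in the upper panel with 16 members called lower, complex IV at -0.11 with 1, and in the lower panel most points lie on the other side of 0.

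The core of complex I, the subunits that carry out electron transfer and have bacterial counterparts, held the gene with the largest fall. Of the 6 nuclear core subunits, 5 fell, which are the 5 that bind iron-sulfur clusters; this subset was set apart after its values were seen and is given as a description. Ndufs7, whose cluster passes electrons to ubiquinone, had signals of 4770, 3640 and 4610 in media, 1590, 2150 and 2430 with DNA, and 3620, 3410 and 3500 in the knockout with DNA. The wild-type DNA arrays lay below all others. The difference from media was -1.08 ± 0.18 (adjusted p = 0.0020), which is 47.2% of the media level, and a further probe set of the gene gave -1.08. Its call held under each scaling (adjusted p at most 0.016) and without any array or array number (at most 0.036).

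Ndufs8, the neighbouring iron-sulfur subunit, had signals of 7100, 5950 and 5960 in media, 4200, 4240 and 3500 with DNA, and 7950, 6070 and 7640 in the knockout. The wild-type DNA values did not overlap with those of either other group, and the difference from media was -0.67 ± 0.15 (adjusted p = 0.0075). All 5 further probe sets of Ndufs8 were below 0 (-0.69 to -0.05). Ndufv1, which binds NADH and the flavin, gave 3850, 4500 and 3940 in media, 2270, 3240 and 2600 with DNA, and 3770, 3810 and 3630 in the knockout (DNA against media -0.61 ± 0.15, adjusted p = 0.012). Ndufs1, the largest subunit of the peripheral arm, went from 1670, 1770 and 1440 to 895, 1190 and 1180 (-0.58 ± 0.17, adjusted p = 0.029), and was 1450, 1810 and 1400 in the knockout. Ndufv2, the partner of Ndufv1, gave a smaller difference of -0.43 ± 0.13 (adjusted p = 0.033). Quantile normalization ended the call of Ndufs1, and for these 4 genes the call ended when arrays were centred on the genes tested (adjusted p = 0.30 for Ndufs8, 0.34 for Ndufv1, 0.48 for Ndufs1 and 1 for Ndufv2, whose difference was then 0.00). Ndufs3, the core subunit without a cluster, had 4300, 4190 and 4030 in media and 4060, 3830 and 3630 with DNA, a difference of -0.12 ± 0.12 that did not pass (adjusted p = 0.47).

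Accessory subunits of complex I surround the core and are needed for its assembly and stability. Of the 27 tested, with Ndufa4 included by its symbol, 11 fell and 1 rose. Ndufb10, of the distal membrane arm, had 2680, 2760 and 3170 in media, 1390, 1970 and 1820 with DNA, and 2940, 3100 and 2840 in the knockout. Here too the wild-type DNA arrays stood apart from both other groups (-0.74 ± 0.16 against media, adjusted p = 0.0064). Ndufa8, which faces the intermembrane space, fell from 5680, 5410 and 5150 to 2690, 3890 and 3610 (-0.68 ± 0.15, adjusted p = 0.0070). In the knockout Ndufa8 measured 4550, 4830 and 4500, between the ranges of the other groups. Ndufa6, a peripheral-arm subunit of the LYR family, went from 7190, 6570 and 7290 to 3810, 4610 and 5220 (-0.63 ± 0.14, adjusted p = 0.0070). Its knockout arrays, at 5270, 4760 and 4680, overlapped with the wild-type DNA arrays and lay below all media arrays. Ndufb11 (-0.50 ± 0.12, adjusted p = 0.013), Ndufb7 (-0.43 ± 0.12, adjusted p = 0.022) and Ndufa3 (-0.37 ± 0.11, adjusted p = 0.033) fell by less, and their values did not overlap with media. The other accessory subunits that fell were Ndufa5, Ndufa10, Ndufb2, Ndufb3 and Ndufb8, by 0.46 to 0.61. None of these 11 calls held when arrays were centred on the genes tested, where the differences of Ndufb7 and Ndufa3 were 0.00 and 0.07. Without the arrays numbered 3, 3 members were called lower in all, against 8.05% of all genes. With the wild-type DNA array numbered 2 left out 33 were, against 22.9% of all genes.

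Ndufb1, a small membrane-arm subunit, was the only member called higher. Its signals were 779, 716 and 1040 in media, 1690, 1160 and 1240 with DNA, and 724, 826 and 854 in the knockout. All 3 wild-type DNA values lay above those of the other groups, the lowest of them close to the highest media value (0.68 ± 0.20, adjusted p = 0.026). The call held under each scaling (adjusted p at most 0.045). It ended without the media array numbered 1 or 2 or the wild-type DNA array numbered 1, and without any 1 of the 3 array numbers (adjusted p up to 0.14). Ndufs4, a phosphorylated peripheral subunit, measured 2340, 2860 and 2740 in media and 3700, 3350 and 2770 with DNA, which did not pass (0.30 ± 0.15, adjusted p = 0.14), and its other probe sets gave -0.14, 0.16 and 0.78.

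**Figure D2:**
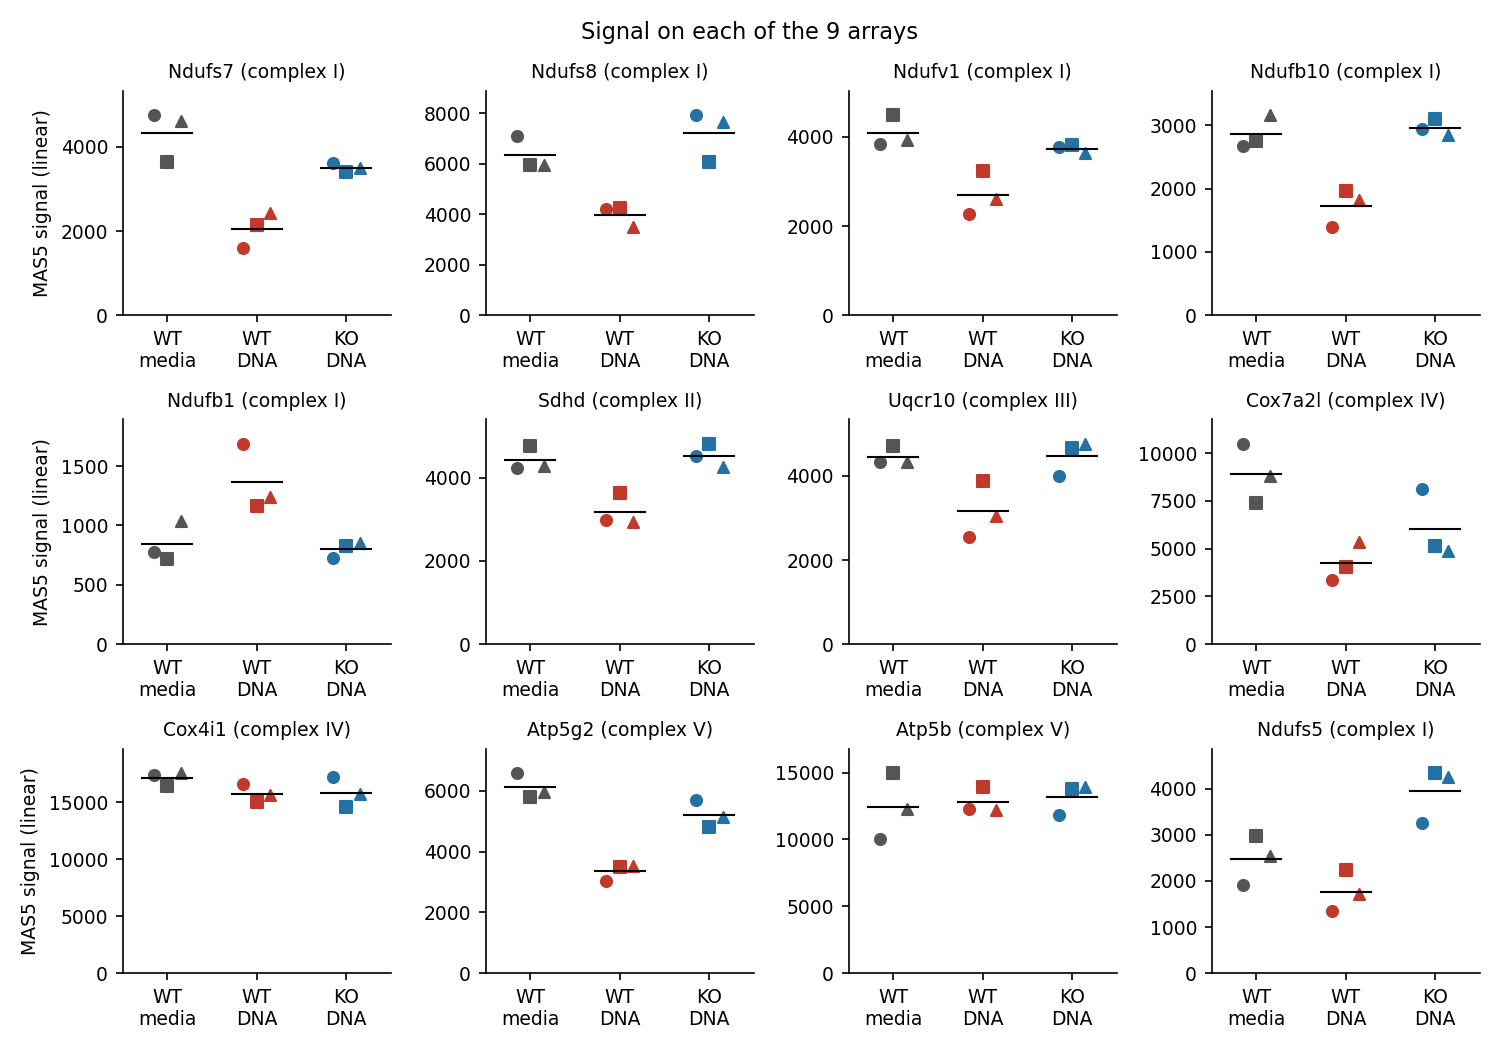
Linear MAS5 signal on each of the 9 arrays for 12 members; grey points are wild-type media, red wild-type tumor DNA and blue STING knockout tumor DNA, circles, squares and triangles are array numbers 1, 2 and 3, and bars are means of 3 arrays. Ndufs7 drops to 1590 to 2430 in wild-type cells with DNA, Cox4i1 stays between 14600 and 17600 in all groups, and Ndufs5 is highest in the knockout.

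Complex II, succinate dehydrogenase, links the tricarboxylic acid cycle to the chain. Its membrane anchor Sdhd had 4230, 4770 and 4280 in media, 2990, 3640 and 2930 with DNA, and 4510, 4820 and 4250 in the knockout. The DNA arrays lay below all others, and Sdhd fell by 0.48 ± 0.13 (adjusted p = 0.019). The flavoprotein Sdha went from 3950, 3840 and 3600 to 2600, 2960 and 3120 without overlap, but narrowly missed the threshold (-0.39 ± 0.14, adjusted p = 0.057). The iron-sulfur subunit Sdhb (-0.35 ± 0.15, adjusted p = 0.10) and the second anchor Sdhc (-0.29 ± 0.19, adjusted p = 0.27) did not pass. With the array number as a block Sdha and Sdhb passed as well. The mean over the probe sets of Sdhd ended its call, as did centring on the genes tested (adjusted p up to 0.83).

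In complex III, Uqcr10, a small subunit of the cytochrome bc1 complex, fell from 4320, 4710 and 4320 to 2560, 3870 and 3050 (-0.51 ± 0.16, adjusted p = 0.034), and was 4000, 4670 and 4770 in the knockout. The 2 other probe sets of Uqcr10 gave -1.27 and -0.61, with far lower signals on the wild-type arrays numbered 2 (85.8 in media and 7.16 with DNA for one, 327 and 266 for the other) than on those numbered 1 and 3. Uqcr11, another small subunit, had the largest difference of the complex (-0.60 ± 0.21) and lay on the threshold (adjusted p = 0.051); it passed with the block. The catalytic Rieske iron-sulfur protein Uqcrfs1 measured 4540, 5470 and 5000 in media and 4800, 4640 and 5120 with DNA, with no call (-0.04 ± 0.12, adjusted p = 0.82). The core proteins Uqcrc1 (-0.30 ± 0.14) and Uqcrc2 (-0.04 ± 0.18) did not pass. The chosen probe set of Uqcrq did not pass (-0.30), and the others read 5.03 to 93.5, near the floor.

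Complex IV, cytochrome c oxidase, had the median difference closest to 0, and 1 of its members was called with the deposited scaling. This was Cox7a2l, better known as a factor that joins complexes III and IV into a supercomplex than as an oxidase subunit. It had 10500, 7400 and 8790 in media, 3380, 4020 and 5340 with DNA, and 8110, 5140 and 4900 in the knockout. Wild-type DNA arrays lay below all media arrays, while the knockout arrays overlapped with both. The difference from media was -1.07 ± 0.23 (adjusted p = 0.0070), and its other probe sets gave -1.06 and -1.36; centring on the genes tested left -0.64 (adjusted p = 0.059). Cox4i1, the regulatory subunit that binds ATP, measured 17400, 16400 and 17600 in media, 16600, 15000 and 15600 with DNA, and 17200, 14600 and 15700 in the knockout. The groups overlapped, and the difference of -0.12 had a 95% interval of -0.34 to 0.10. Intervals of the same kind were -0.16 to 0.29 for Cox5a, -0.30 to 0.20 for Cox5b, -0.31 to 0.17 for Cox6c and -0.32 to 0.09 for Cox8a, all of them subunits found in most tissues. These probe sets are all in the highest of 3 bins of signal described below. After quantile normalization 4 of the 8 complex IV members in that bin were called lower with DNA, against 24.9% of all genes in it. Other probe sets of Cox5b above the low-signal filter gave -0.39, -0.20, -0.15 and 0.16, and that of Cox6c gave -0.17. Cox6a1 (0.10 ± 0.11) and Cox7a2 (-0.18 ± 0.13), the liver-type isoforms, did not pass.

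Isoforms typical of muscle, lung or testis were dim. Cox7a1, the heart and muscle form, measured between 59.9 and 198 (-0.70 ± 0.32, adjusted p = 0.11), Cox6a2 between 153 and 262 (0.02 ± 0.25), and Cox4i2, the lung form, between 15.8 and 140 (-0.33 ± 0.53). Cox7c is found in most tissues, yet its probe sets read at most 69.1, and its groups did not overlap between media and DNA (-0.66 ± 0.26, adjusted p = 0.074). Ndufa4, named as a complex I subunit but since shown to sit in complex IV, measured 2470, 4740 and 3260 in media and 1670, 4170 and 2220 with DNA, values that differed more between array numbers than between media and DNA (-0.43 ± 0.34, adjusted p = 0.37). AA467197, the mouse counterpart of the inflammation-induced Ndufa4 paralogue NMES1, lies outside the symbol rule. It rose from 15300, 20000 and 23700 to 30800, 28400 and 29300 (0.61 ± 0.16, adjusted p = 0.018) and was 18400, 22800 and 24600 in the knockout. Its call ended with quantile normalization (adjusted p = 0.11) and without number 1, number 2, the media array numbered 1 or the wild-type DNA array numbered 1.

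In complex V the lowest p belonged to a gene of the rotor ring. Atp5g2, 1 of 3 genes for the same mature c subunit, had 6600, 5810 and 5970 in media, 3040, 3490 and 3520 with DNA, and 5700, 4820 and 5140 in the knockout. Its 3 groups did not overlap. It fell by 0.87 ± 0.12 (adjusted p = 0.0011), the lowest adjusted p among the members, to 54.8% of media, and the call held under each scaling (adjusted p at most 0.027) and without any array or array number (at most 0.035). Atp5g1, a further c-subunit gene, went from 3110, 4870 and 3880 to 1790, 3550 and 2120 and did not pass (-0.70 ± 0.27, adjusted p = 0.072). Atp5g3, the last of the 3, measured 16400, 16700 and 17600 in media and 15100, 18100 and 15300 with DNA (-0.07 ± 0.11, adjusted p = 0.64). The catalytic beta subunit Atp5b had 10000, 15000 and 12300 in media and 12300, 13900 and 12200 with DNA (0.06 ± 0.15), and the alpha subunit Atp5a1 did not pass either (-0.14 ± 0.12). Atp5h of the peripheral stalk fell by 0.29 ± 0.10 (adjusted p = 0.049).

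A shift common to an array moves complexes I and IV alike, so the difference between them does not depend on it. On each array the median of complex I minus that of complex IV, both centred on their means over the 9 arrays, was 0.05, 0.20 and 0.11 in media, -0.35, -0.15 and -0.19 on the wild-type DNA arrays, and 0.01, 0.09 and 0.05 in the knockout with DNA. The 3 wild-type DNA arrays lay below the other 6. After quantile normalization the values were 0.11, 0.12 and 0.08, then -0.30, -0.12 and -0.13, then -0.02, 0.11 and 0.02, with the same separation. Against complex V the separation was narrower. Complex I minus complex V was 0.06, 0.11 and 0.09 in media, -0.36, -0.07 and -0.07 on the wild-type DNA arrays, and 0.01, 0.03 and -0.04 in the knockout. After quantile normalization the wild-type DNA values of -0.20, 0.01 and -0.03 overlapped with those of the knockout (-0.06, -0.01 and -0.05). These arrays and genes were those that showed the difference between complexes, so the index is a description with no test.

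**Figure D3:**
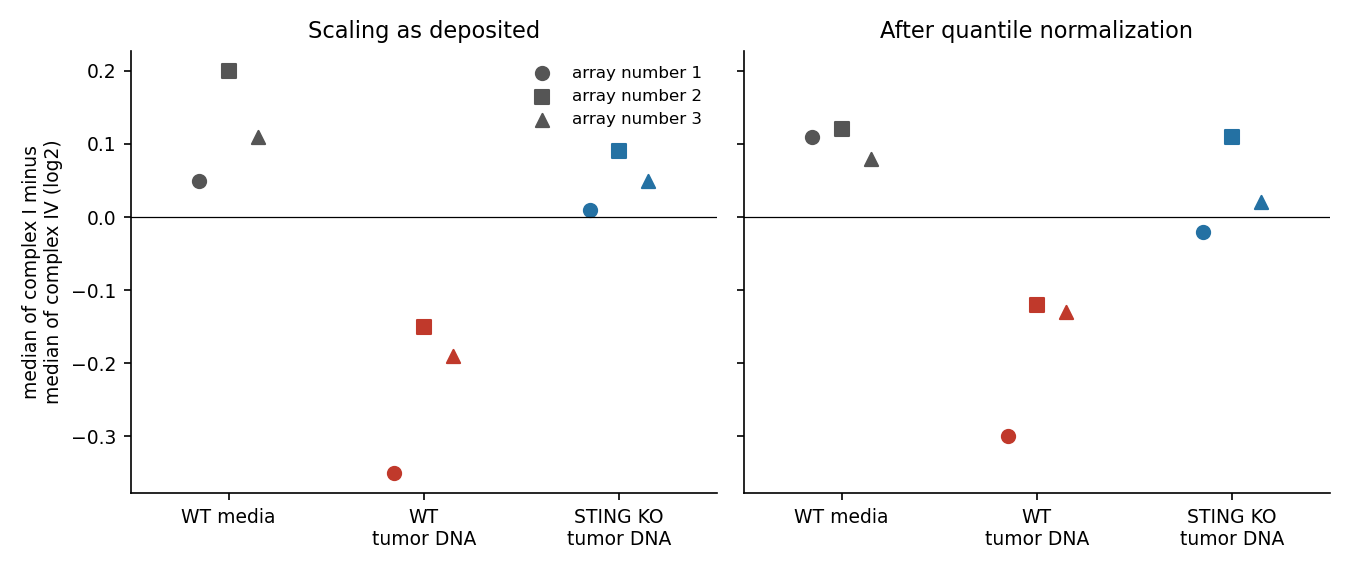
Median centred log2 level of the 33 complex I members minus that of the 15 complex IV members on each array, with the deposited scaling (left) and after quantile normalization (right); grey is wild-type media, red wild-type tumor DNA and blue STING knockout tumor DNA. Red points lie at -0.35 to -0.15 on the left and -0.30 to -0.12 on the right, below all others.

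Signal level moved with this pattern. The 77 members were divided into 3 bins by their mean signal over the 9 arrays, a split chosen after the data were seen. Of the 26 members in the lowest bin (up to 4640) 10 fell, of the 25 in the middle bin 10 fell, and of the 26 in the highest bin (7970 to 23100) 1 fell. The median difference was -0.49, -0.37 and -0.14. All genes tested in the same ranges had medians of -0.23, -0.01 and 0.12, and 24.5%, 19.4% and 7.39% of them were called lower. Members thus lay 0.25, 0.35 and 0.26 below the genes of like signal, and 0.40, 0.38 and 0.24 below them after quantile normalization. Complex I lay 0.32, 0.41 and 0.35 below genes of like signal and members outside complex I 0.16, 0.33 and 0.25. Of the 15 complex IV members 8 were in the highest bin, where they lay 0.18 below genes of like signal, against 4 of the 33 in complex I. The part of signal level in the difference between complexes was not tested beyond these bins.

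**Figure D4:**
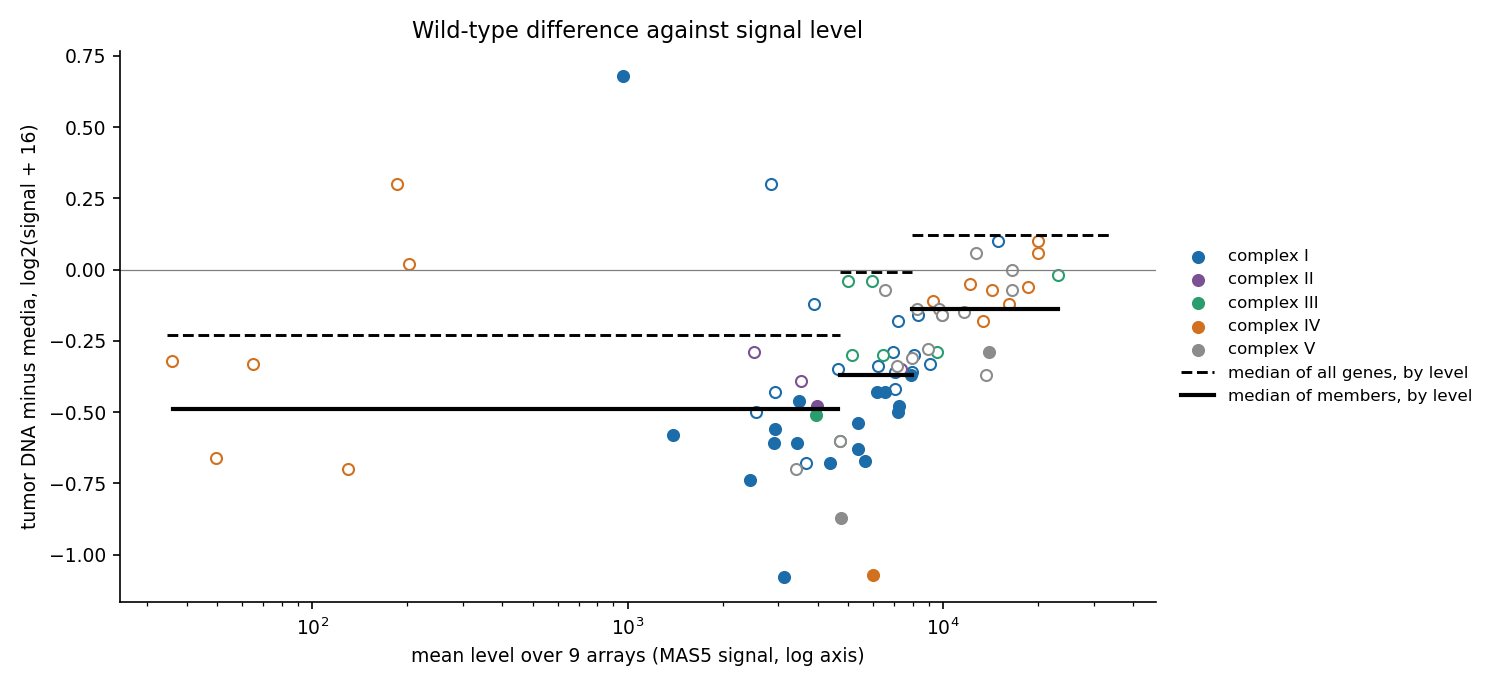
Wild-type difference between tumor DNA and media (log2(signal + 16)) against the mean MAS5 signal over 9 arrays (log axis) for the 77 members, coloured by complex and filled where called; solid bars are medians of the members and dashed bars medians of all genes tested in the same 3 ranges of signal. The solid bars (-0.49, -0.37, -0.14) lie below the dashed ones (-0.23, -0.01, 0.12) in every range.

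Under tumor DNA, STING knockout cells had higher signal than wild-type cells for many of the subunits that were lower with DNA. Of 77 members, 15 were higher in the knockout and 1 was lower, against 21.8% and 9.73% of all genes, so the members' 19.5% was near the background. By complex the higher ones were 9 of 33 in I, 2 of 4 in II, 1 of 8 in III, 0 of 15 in IV (limma; 0 also at an unadjusted p under 0.05) and 3 of 17 in V. Median differences were 0.32, 0.34, 0.17, 0.04 and 0.24 in that order, 0.26 over the members and 0.20 over all genes. Both comparisons use the same wild-type DNA arrays, so the mirror of the first in the second is not independent of it. With the block 29 members were higher, against 29.9% of all genes. Centring on the genes tested gave 10 lower and 1 higher (Ndufs5), against 19.8% and 8.68% of all genes. Quantile normalization gave 31 higher and 1 lower, against 17% and 10.8% of all genes. Leaving out the arrays numbered 3 gave 0 higher with limma, against 6.75% of all genes, and 10 at an unadjusted p under 0.05, against 21.5%.

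Ndufs5, a membrane-arm subunit of complex I, had the largest difference between the genotypes. It measured 3260, 4350 and 4250 in the knockout against 1340, 2230 and 1710 in wild-type cells with DNA (1.18 ± 0.23, adjusted p = 0.0037), with no overlap, and the call held under each scaling (adjusted p at most 0.021) but not without the arrays numbered 3 (0.083). In wild-type cells its change with DNA, from 1910, 2970 and 2540, did not pass (-0.50 ± 0.23, adjusted p = 0.12). Ndufs8 (0.85 ± 0.15, adjusted p = 0.0023), Ndufb10 (0.79 ± 0.16, adjusted p = 0.0045) and Ndufs7 (0.79 ± 0.18, adjusted p = 0.0080) were higher in the knockout, as was Ndufv1 (0.48 ± 0.15, adjusted p = 0.034). Ndufa12, a peripheral-arm subunit, had 3770, 5120 and 4790 in the knockout and 1820, 3840 and 2530 in wild-type cells, overlapping by 1 array (0.79 ± 0.25, adjusted p = 0.036). Ndufb1 was the member that was lower in the knockout (-0.74 ± 0.20, adjusted p = 0.018).

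Outside complex I, the members higher in the knockout included both Sdhd (0.51 ± 0.13, adjusted p = 0.015) and Sdha, at 4620, 4150 and 3450 (0.49 ± 0.14, adjusted p = 0.027). Uqcr10 was higher by 0.52 ± 0.16 (adjusted p = 0.034), and its 2 other probe sets gave 2.14 and 1.26, or 0.39 and 0.56 without the arrays numbered 2. In complex V these were Atp5g2 (0.64 ± 0.12, adjusted p = 0.0040), Atp5g1 (0.84 ± 0.27, adjusted p = 0.039) and Atp5d, the delta subunit of the central stalk (0.37 ± 0.12, adjusted p = 0.036). No complex IV subunit was called between the genotypes with the deposited scaling. After quantile normalization 2 of the 8 in the highest bin of signal were higher in the knockout, against 23.5% of all genes in that bin. The 95% intervals were -0.22 to 0.22 for Cox4i1, -0.30 to 0.15 for Cox5a and -0.13 to 0.29 for Cox8a. Cox7a2l (0.50 ± 0.23, adjusted p = 0.13), Cox7a1 (0.62 ± 0.32) and Cox7c (0.53 ± 0.26) did not pass.

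Knockout cells given DNA and wild-type cells in media differed little in these genes. With limma, 0 of 77 members were called in either direction, where 0.262% of all genes were called lower and 0.167% higher. At an unadjusted p under 0.05, 2 were lower and 1 higher, against 4.28% and 3.25% of all genes. The median difference was -0.04, with a range of -0.59 to 0.68. All 3 knockout values lay below all 3 media values for 9 members (7.88% of all genes did so) and above them for 2 members, Ndufs5 and Atp5d (5.93% of all genes). Ndufs5 (0.68 ± 0.23, adjusted p = 0.44) passed with the block (adjusted p = 0.026), the 1 member that did. Those below were Ndufa3, Ndufa6, Ndufa8, Ndufb7, Ndufs3, Ndufs7, Ndufv1, Atp5g2 and Atp5j2. The 7 of them in complex I were 21.2% of its 33 members tested, above the 7.88% of all genes. Ndufa6 had the largest difference of these, -0.52 ± 0.14 (adjusted p = 0.26). By the same measure, all 3 wild-type DNA values lay below media for 30 members and above for 1, where 31.4% and 15% of all genes did so. Knockout values lay above wild-type DNA values for 27 members and below for 1 (31.3% and 14.7% of all genes).

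Other nuclear genes of mitochondrial energy production were counted in the same fit, where 23.6% of all genes were called lower with DNA and 21.8% higher in the knockout. Of 17 assembly factors of complex I tested, 9 fell with DNA and 0 rose (median -0.70), and 9 were higher and 1 lower in the knockout. Ndufaf4, which helps assemble the quinone module, went from 1070, 1530 and 1770 to 292, 524 and 467 and was 1350, 1840 and 1910 in the knockout (-1.74 ± 0.26, adjusted p = 0.0015, then 1.97 ± 0.26, adjusted p = 6.9e-04). Of 12 assembly factors of complexes II, III and V, 8 fell and 0 rose, among them Sdhaf1 (-1.41), needed to insert iron-sulfur clusters into Sdhb, and Bcs1l (-1.54), which places the Rieske protein. The 19 assembly factors of complex IV were mixed, with 9 lower and 3 higher. The copper chaperone Sco2 fell (-1.84, adjusted p = 5.7e-04) while its paralogue Sco1 (1.33, adjusted p = 0.0017) and the assembly factor Coa5 (0.80, adjusted p = 8.4e-04) rose.

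Of 11 electron carriers and subunits outside the symbol rule, 3 fell (27.3%, near the 23.6% of all genes) and 1 rose; cytochrome c (Cycs) did not pass (0.50, adjusted p = 0.079), nor did Cyc1 (-0.44, adjusted p = 0.10). Of 12 tricarboxylic acid cycle genes 8 fell and 0 rose (median -0.72), led by fumarase Fh1 (-1.25, adjusted p = 0.0020). Of 76 mitochondrial ribosomal protein genes 47 fell and 1 rose (median -0.69). Of 13 regulators tested 7 fell and 0 rose. The mitochondrial RNA polymerase Polrmt (-2.29, adjusted p = 0.0011), its cofactor Tfb2m (-1.76, adjusted p = 5.2e-04) and the PGC-1-related coactivator Pprc1 (-1.46, adjusted p = 5.9e-04) fell, as did the mitochondrial DNA helicase Twnk (-1.65, adjusted p = 8.4e-04). In the knockout Polrmt, Tfb2m, Pprc1 and Twnk were higher by 2.17, 1.86, 1.76 and 1.51. Yy1 (-0.59, adjusted p = 0.0083) and Ppargc1b (-0.99, adjusted p = 0.0057) were lower with DNA. Both were higher in the knockout, by 0.68 (adjusted p = 0.0043) and 0.77 (adjusted p = 0.018). Gabpa (-0.61, adjusted p = 0.013), a factor that acts on many subunit genes, also fell, but its call ended when arrays were centred on the genes tested (-0.05, adjusted p = 0.83), with the mean over probe sets, and without number 2 or 3; Nrf1 (0.65, adjusted p = 0.10), Esrra (-0.20, adjusted p = 0.50) and Tfam (-0.22, adjusted p = 0.29) did not pass. Of 12 outer membrane and matrix markers of mitochondrial content, 4 fell (33.3%) and 1 rose, with Tomm70a up by 1.21 and Hspd1 at -0.72. When arrays were centred on the genes tested, 3 of 17 complex I assembly factors, 5 of 12 of complexes II, III and V, 5 of 19 of complex IV, 1 of 12 cycle genes, 15 of 76 ribosomal protein genes, 4 of 13 regulators, 0 of 11 carriers and 0 of 12 content markers were lower with DNA in limma, against 8.58% of all genes. In none of these lists was a gene called between knockout cells with DNA and wild-type cells in media.

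**Figure D5:**
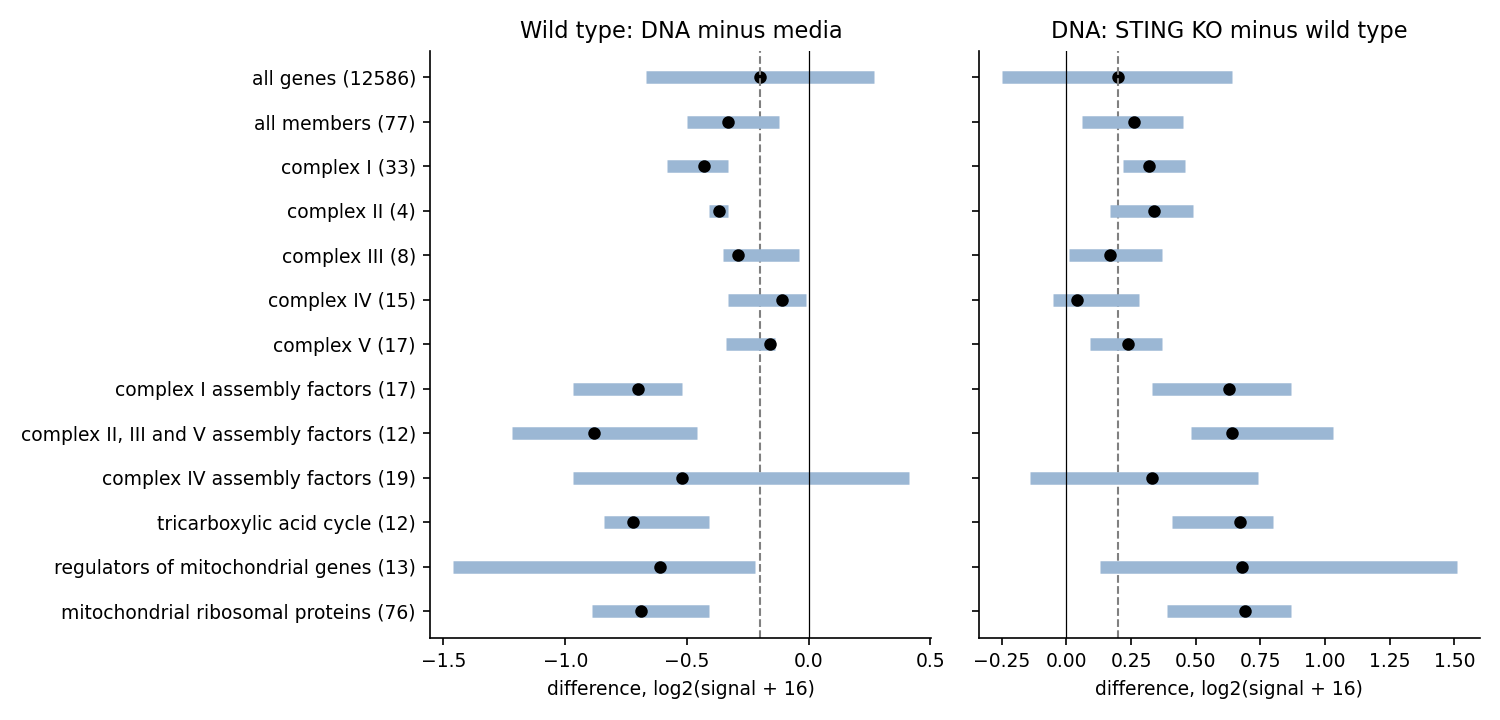
Median (point) and middle 50% of genes (bar) of the difference on the log2(signal + 16) scale for the members, each complex and related lists, with the number of genes tested in brackets; the dashed line is the median of all genes. Complex IV (-0.11) and complex V (-0.16) lie to the right of the dashed line at -0.20 in the left panel, while mitochondrial ribosomal proteins (-0.69) and assembly factors lie to its left.

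Because NRF1, GABPA, ERR alpha and YY1 are known to act on subunit genes, the RefSeq promoters of GRCm38.p6, 250 bases before to 50 after the start, were searched on both strands for GCGCATGCG (NRF1), CCGGAAGT (GABPA), TCAAGGTCA (ERR) and AAGATGGC (YY1). A promoter was found for 66 of the 81 members, 71 promoters in all. The NRF1 letters were in 9.86% of them and in 1.75% of all 32851 promoters, the YY1 letters in 12.7% and 2.75%, the GABPA letters in 7.04% and 3.89%, and the ERR letters in 2.82% and 0.423%. Among the 21 promoters of members that fell with DNA the NRF1 letters were in 9.52%, and among the 47 of tested members that did not fall in 10.6%. For YY1 the shares were 14.3% and 12.8%. A match is a run of letters and not a measured site. The promoters of Atp5g2 and Ndufa8, which fell, and of Atp5k, which did not (-0.14 ± 0.12), are shown from 150 bases before to 20 after the start, 5′ to 3′ on the gene's strand, with NRF1 matches in capitals. They illustrate that the same letters stand near the start of members with and without a fall. In Atp5g2 and Atp5k the capitals join 2 overlapping matches on opposite strands.
Atp5g2, chr15:102671028-102671197, minus strand: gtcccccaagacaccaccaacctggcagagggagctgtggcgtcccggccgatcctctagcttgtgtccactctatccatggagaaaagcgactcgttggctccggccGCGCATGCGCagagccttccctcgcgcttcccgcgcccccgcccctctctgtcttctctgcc
Ndufa8, chr2:36049319-36049488, minus strand: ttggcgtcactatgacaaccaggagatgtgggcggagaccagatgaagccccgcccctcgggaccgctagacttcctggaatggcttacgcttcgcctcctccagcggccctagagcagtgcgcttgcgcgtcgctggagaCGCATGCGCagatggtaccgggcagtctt
Atp5k, chr5:108434380-108434549, minus strand: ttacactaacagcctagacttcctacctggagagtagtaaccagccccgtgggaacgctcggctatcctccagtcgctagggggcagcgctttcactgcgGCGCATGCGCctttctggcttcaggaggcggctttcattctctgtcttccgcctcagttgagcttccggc
The match begins 42 bases before the start in Atp5g2, 50 before it in Atp5k and 9 before it in Ndufa8. The 6 YY1 matches in complex I (Ndufa3, Ndufa9, Ndufb8, Ndufc1, Ndufs4 and Ndufs7) all begin 23 to 39 bases after the start, in members that fell and in members that did not.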

How the data were processed

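Messenger RNA was measured on 9 Affymetrix mouse arrays from 6 ug of total RNA each. The deposited intensities are linear and come from MAS5, per the submitters' processing notes; its version is not given in the sources used here. Each array had the same trimmed mean of 499.8, so they had been scaled alike. No detection calls were used. Values were taken as log2(signal + 16), probe sets with a mean at or under the 40th percentile (5.67) were left out, and each gene kept its probe set of highest mean. Groups were compared with limma 3.58.1 (lmFit, eBayes with an intensity trend) in R 4.3.3 over 12586 genes, all 3 groups in 1 fit, with Benjamini-Hochberg adjustment; the fit was tested on simulated data. The number of arrays limits the precision. Genes named are called members without overlap (up to 15 per comparison), the largest difference per complex, fixed subunits and regulators, and leading genes of the related lists; others were named after their values were seen. Residuals of arrays with the same number correlated at 0.17 to 0.49 (9 pairs) and those of different number at -0.42 to 0.14, so the block is given; over the members alone the same-number range was -0.50 to 0.72. Members and lists were chosen with earlier results of these data known. Promoter sequences are from RefSeq.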

Additional observations from a re-analysis of the deposited data

How the results depend on the processing

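Scaling mattered most. After quantile normalization 41 members were called lower with DNA and 31 higher in the knockout. Relative to all genes, the complexes then lay at -0.46 (I), -0.40 (II), -0.36 (III), -0.21 (IV) and -0.33 (V) with DNA, with IV and V turned from 0.08 and 0.03, and at 0.32, 0.34, 0.22, 0.19 and 0.35 in the knockout against wild type, with III and IV turned. Centring on the genes tested, added after the data were seen, gave 2 lower and 14 higher with DNA (median 0.10), 10 lower and 1 higher in the knockout (median -0.14) and a median of -0.00 between knockout with DNA and media. With DNA 44 of the 77 members changed sign in it. Among these and the related genes, those called in 1 of the settings that turned included Ndufb7 and Ndufv2 (0.00), Ndufa3 (0.07), Uqcrfs1 (0.39, then called), Atpif1 and Tomm22 (0.01 each) with DNA, and Atp5d (-0.03) and Ndufa13 (-0.01) in the knockout. The cause was not tested. Without the filter, against more dim genes, complexes I to V lay at -0.38, -0.31, -0.24, -0.06 and -0.11 with DNA, and II, III and IV at 0.28, 0.11 and -0.02 in the knockout. An offset of 64 turned complex III in the knockout to 0.01. The mean over probe sets gave 2 lower members in the knockout, against 9.33% of all genes, and -0.10 for complex III there. Between knockout with DNA and media it gave -0.06 for the members and -0.03 for complex V. Without the intensity trend 12 of the 77 members were lower with DNA, against 22.2% of all genes. In the knockout 8 were higher, against 20.6%. The replicate block gave 41 and 29, against 31.6% and 29.9% of all genes. Between knockout with DNA and media it gave 1 higher, against 0.683%.

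Leaving out an array or array number gave 3 to 33 members lower and 0 to 1 higher with DNA, and 0 to 1 lower and 0 to 23 higher in the knockout. The low ends were without number 3 and the high ends without the wild-type DNA array numbered 2. Of all genes, 8.05% and 22.9% were lower with DNA in these settings, and 6.75% and 21.3% higher in the knockout. Relative to all genes, complex I ranged from -0.34 to -0.17, III from -0.10 to 0.01 and V from -0.04 to 0.07 with DNA. In the knockout against wild type with DNA, complex I ranged from 0.08 to 0.24 and V from -0.04 to 0.08. Between knockout with DNA and media, the members' median ranged from -0.11 to -0.01, and complexes I, III, IV and V from -0.14 to -0.05, -0.09 to 0.04, -0.04 to -0.00 and -0.04 to 0.04. Over the genes named, 3166 of the values under alternatives kept their status as called or not called. A call was lost in 326 and gained in 49, and 8 turned. Many of the 3166 were never called, so that count does not give the share of calls that held. Depth is unknown for arrays, and a signal near the floor may be background.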
